A study of Mus musculus with 9 samples.

Results

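The regions described here are peaks of the transcription factors E2A and HEB that lie at the ends of genes in mouse T cell precursors. A peak belongs to them if its midpoint is within 1 kb of an end of a protein-coding gene on chromosomes 1 to 19, X or Y, in genome build mm10. The end used was the start site, the 5′ end of the gene span, for the 17492 of 21887 genes whose strand was known, and either end of the span for the other 4395. Of 79216 peaks in 6 lists, 3012 met this rule. They number 742 for E2A and 748 for HEB in DN3 cells, 242 and 343 in CD73- cells, and 208 and 729 in CD73+ cells.

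E2A and HEB were immunoprecipitated from cells made in culture from Rag2-deficient fetal liver progenitors of the BALB/c strain, grown on OP9-DL1, a stromal line that displays the Notch ligand Delta-like 1. DN3 cells are CD4- CD8- CD25+ CD44- precursors, and without Rag2 they rearrange no antigen receptor of their own. For the other cells, DN3 cells of day 7 were transduced with a retrovirus for KN6, a gamma-delta T cell receptor, sorted on its YFP reporter and returned to the stroma for another 3 days. The Thy1+ YFP+ CD4- CD8- CD24+ fraction was then divided into CD73- cells, which by the submitters' account could still adopt an alpha-beta fate, and CD73+ cells, by that account committed to gamma-delta. All groups therefore share the Rag2 deficiency and the stromal culture, and the sorted populations carry 1 introduced receptor. Duplicate samples of each group were joined into 1 file before deposit, so each value below comes from 1 pooled peak list, and no difference could be set against the spread between replicates. Intervals are 95% Wilson intervals and cover counting error only. The read depth behind the lists is unknown here.

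E2A, encoded by Tcf3, and HEB, encoded by Tcf12, are basic helix-loop-helix proteins that bind the E-box, CANNTG, as dimers with each other or with themselves. In early thymocytes these E proteins are known as activators of the genes of the pre-T cell receptor, the CD3 chains and the recombinase. Signals from the T cell receptor raise Id3, which binds E proteins and keeps them off DNA. E proteins act largely from enhancers away from start sites, and the start sites they mark are a small selection of their sites.

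Upstream sequence of 8 genes with gene-end peaks is printed first, since these genes recur below. Cldn4, Padi4, Il5ra and Nr0b2 follow the rule for named genes, and Cd3g, Rag1, Ptcra and Sla2, genes of T cells, were chosen after their values were seen. All printed stretches hold an E-box, which is not true of every stretch the rule gave. Of those not printed, Ddit4, Sfr1 and Safb2 hold 0 E-boxes, and Pik3r5, Degs2 and Pomgnt2 hold 1 each. Hdac7 and Tnfsf14, also taken after values were seen, hold 1 each and are not printed, so the printed stretches are a selection. Each stretch is RefSeq sequence of GRCm38.p6, the mm10 assembly, read 5′ to 3′ on the strand of the gene, and it ends at or before the base upstream of the start site. Capitals mark every E-box, CANNTG.
Cd3g: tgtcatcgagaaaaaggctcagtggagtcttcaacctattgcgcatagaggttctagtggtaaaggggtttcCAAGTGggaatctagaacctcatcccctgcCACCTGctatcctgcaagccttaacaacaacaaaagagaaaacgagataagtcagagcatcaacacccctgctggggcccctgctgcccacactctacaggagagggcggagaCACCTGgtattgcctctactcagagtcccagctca
Rag1: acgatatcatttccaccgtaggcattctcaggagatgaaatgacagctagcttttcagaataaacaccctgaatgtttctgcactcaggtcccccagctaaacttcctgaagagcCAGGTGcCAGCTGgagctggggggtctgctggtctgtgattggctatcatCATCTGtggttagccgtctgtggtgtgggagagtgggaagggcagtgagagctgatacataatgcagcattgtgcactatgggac
Ptcra: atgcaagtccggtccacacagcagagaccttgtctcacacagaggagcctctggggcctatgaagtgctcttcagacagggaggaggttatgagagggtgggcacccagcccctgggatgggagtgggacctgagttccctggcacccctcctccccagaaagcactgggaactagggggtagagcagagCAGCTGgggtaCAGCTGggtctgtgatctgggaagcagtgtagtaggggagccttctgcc
Sla2: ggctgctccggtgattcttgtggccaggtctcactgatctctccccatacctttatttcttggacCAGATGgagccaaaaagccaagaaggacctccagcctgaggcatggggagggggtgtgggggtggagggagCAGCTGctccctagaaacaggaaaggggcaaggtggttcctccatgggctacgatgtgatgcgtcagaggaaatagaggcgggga
Cldn4: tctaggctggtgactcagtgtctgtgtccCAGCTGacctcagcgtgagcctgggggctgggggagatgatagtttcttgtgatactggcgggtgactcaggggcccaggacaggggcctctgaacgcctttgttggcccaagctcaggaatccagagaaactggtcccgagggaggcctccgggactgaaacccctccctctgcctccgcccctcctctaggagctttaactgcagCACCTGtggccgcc
Padi4: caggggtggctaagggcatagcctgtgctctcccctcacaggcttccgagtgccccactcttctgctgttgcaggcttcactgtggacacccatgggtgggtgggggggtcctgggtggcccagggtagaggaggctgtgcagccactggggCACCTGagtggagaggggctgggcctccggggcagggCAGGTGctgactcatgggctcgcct
Il5ra: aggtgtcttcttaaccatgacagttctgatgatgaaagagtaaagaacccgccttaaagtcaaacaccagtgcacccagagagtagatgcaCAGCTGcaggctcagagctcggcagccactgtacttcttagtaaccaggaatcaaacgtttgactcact
Nr0b2: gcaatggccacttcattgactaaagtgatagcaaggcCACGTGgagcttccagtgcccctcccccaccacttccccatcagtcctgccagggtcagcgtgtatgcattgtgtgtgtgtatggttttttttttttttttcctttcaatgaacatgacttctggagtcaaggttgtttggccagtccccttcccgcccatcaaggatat
The Cd3g stretch, chr9:44980432-44980681 on the minus strand, holds 3 E-boxes and lies inside the DN3 E2A peak chr9:44980172-44980900. The Rag1 stretch, chr2:101649533-101649782, minus strand, holds 3 E-boxes inside the DN3 E2A peak chr2:101649280-101649972. The Ptcra stretch, chr17:46763713-46763962, minus strand, holds CAGCTG at 2 places inside the DN3 E2A peak chr17:46763324-46764002. The remaining stretches are chr2:156887251-156887471 for Sla2, chr5:134946935-134947184 for Cldn4, chr4:140774240-140774453 for Padi4 and chr6:106749128-106749287 for Il5ra, all on the minus strand, and chr4:133553144-133553350 for Nr0b2 on the plus strand. A match is a description of these letters and not a measured binding site.

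Gene ends took a larger share of the DN3 lists and of the CD73+ HEB list than of the other lists. They made up 6.0% of 12357 DN3 E2A peaks (5.60% to 6.44%) and 6.44% of 11619 DN3 HEB peaks (6.01% to 6.90%). In CD73- cells the shares were 1.95% of 12434 E2A peaks (1.72% to 2.20%) and 3.65% of 9407 HEB peaks (3.29% to 4.04%). In CD73+ cells they were 0.896% of 23205 E2A peaks (0.783% to 1.03%) and 7.15% of 10194 HEB peaks (6.67% to 7.67%). The windows of 1 kb cover 1.81% of the chromosomes up to their last gene or peak, so 4 lists lay above that share, the CD73- E2A list was near it and the CD73+ E2A list was below it. The same order of lists is visible in the plot of shares.

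**Figure D1:**
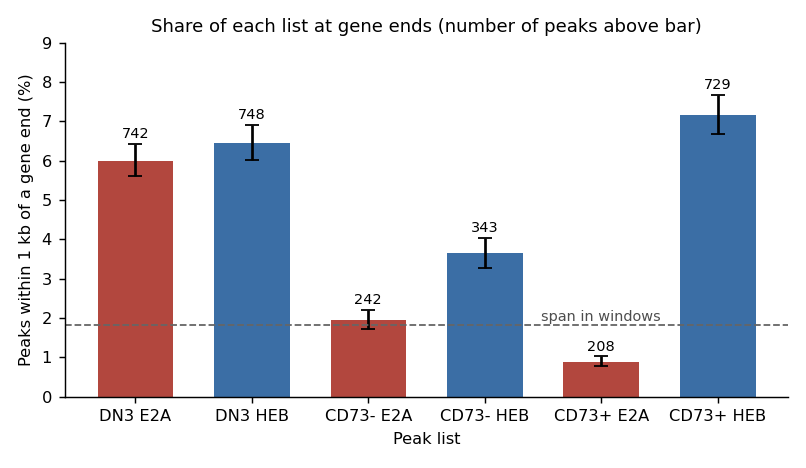
Share of peaks whose midpoint lies within 1 kb of a gene end, in percent, for each of the 6 lists, with 95% Wilson intervals and the number of such peaks above each bar (E2A red, HEB blue). The dashed line is the 1.81% of the chromosomes that lies in the windows, and the CD73+ E2A list, at 0.896%, is the one whose interval is wholly below it.

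Each peak carries a score from the authors' peak caller, 10 times the negative log10 of its p-value, with a minimum of 50. Scores depend on depth and rank peaks within a list, so those of different lists are given side by side and not compared. Gene-end peaks scoring at least 100, called strong here, made up 38.5% of the DN3 E2A members and 34.9% of the DN3 HEB members, against 40.6% and 30.7% of all peaks of those lists. In CD73- cells 26.4% of gene-end E2A peaks were strong against 8.79% of all E2A peaks, and 28.6% of gene-end HEB peaks against 14.3%. In CD73+ cells the shares were 21.6% against 7.02% for E2A and 35.8% against 24.1% for HEB. In the 4 lists of sorted cells, gene-end peaks were thus more often strong than the peaks of their list as a whole, while in the DN3 lists the interval of the gene-end share held the share of the whole list for E2A (35.1% to 42.1%) and lay above it for HEB (31.6% to 38.4%). Peaks with a score of at least 500 numbered 36, 24, 1, 8, 0 and 17 in the order DN3 E2A, DN3 HEB, CD73- E2A, CD73- HEB, CD73+ E2A and CD73+ HEB. Median widths of gene-end peaks were 633 bp and 782 bp in the DN3 lists and 173 to 227 bp in the others.

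Within the window, peaks gathered at the start site in 5 of 6 lists. Of peaks near a known start, 41.6% in the DN3 E2A list and 42.6% in the DN3 HEB list had their midpoint within 250 bp of it, where an even spread over the window would give 25%. The shares were 37.0% and 33.0% for E2A and HEB in CD73- cells and 52.7% for CD73+ HEB, the highest of the 6. CD73+ E2A peaks were spread almost evenly, with 25.8% within 250 bp. Peaks lay upstream of the start about as often as downstream, with 44.9% to 51.6% upstream over the 6 lists. The start base itself was covered by the peak for 51.2% and 61.2% of DN3 E2A and HEB peaks, and for 10.7% to 33.3% in the 4 lists of narrower peaks.

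**Figure D2:**
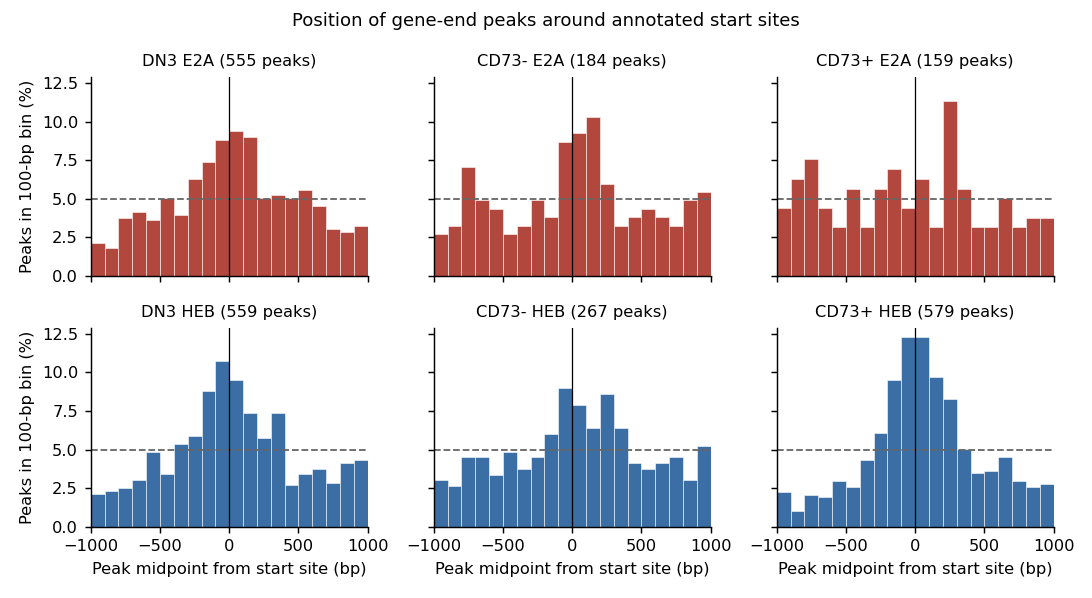
Distance of peak midpoints from the nearest annotated start site in bp, negative upstream, as the percent of peaks in bins of 100 bp, for the gene-end peaks of each list near a gene of known strand. The dashed line marks an even spread, and the CD73+ HEB peaks show the tallest centre, while the CD73+ E2A peaks stay around the line except for 1 bin downstream of the start.

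The gene-end peaks marked 1772 protein-coding genes, 8.1% of all. DN3 E2A peaks marked 776 genes (3.55% of 21887) and DN3 HEB peaks 785 (3.59%). In CD73- cells, E2A marked 216 genes (0.987%) and HEB 315 (1.44%). In CD73+ cells, E2A marked 211 (0.964%) and HEB 708 (3.23%). Most genes were marked in few lists: 1134 of the 1772 (64.0%) in 1 list, 319 in 2, 157 in 3, 78 in 4, 48 in 5 and 36 in all 6, which is 0.164% of protein-coding genes. Some peaks marked more than 1 gene, from 12 peaks in the CD73- E2A list to 85 in the CD73+ HEB list, and in each list most of these lay between genes that start head to head (8 and 56 peaks in those lists).

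The 36 genes marked in all 6 lists include genes of lymphocyte homing, receptor signalling and transcription. Selplg, the gene of the selectin ligand PSGL-1 that thymus-seeding cells and T cells use to roll on endothelium, had scores of 2286.5 and 1577 for E2A and HEB in DN3 cells, 811 and 1116 in CD73- cells, and 221 and 1269 in CD73+ cells. Its CD73- E2A peak, chr5:113832451-113833008, overlapped the end of the gene span at base 113832528. Selplg thus held a place among the 6 highest gene-end peaks of every list. Rasgrp2, which encodes an exchange factor that activates the small GTPase Rap1, had scores of 1294, 1952, 489, 340, 215 and 1436 in the same order of lists. Its peaks in sorted cells lay 311 to 436 bp upstream of the start, and the wider DN3 peaks had midpoints 38 bp upstream and 102 bp downstream. Sla2, which encodes an adaptor that dampens antigen receptor signalling, had 1264, 608, 378, 386, 57.3 and 916, with every midpoint within 89 bp of the start.

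Cd2ap, an adaptor of the CD2 receptor and the actin skeleton, had scores of 1090, 1123, 236, 433, 137 and 611. The scores of Ddit4, whose product restrains the mTORC1 growth pathway, were 1877, 872, 328, 215, 181 and 757. Its peaks lay 734 to 981 bp downstream of the start, inside the gene. Kcna2, a voltage-gated potassium channel gene, had scores of 967, 728, 305, 417, 68.0 and 800. Its midpoints were 336 to 739 bp upstream.

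Cbfa2t3, the gene of the corepressor ETO2 that binds E proteins, had scores of 1012, 682, 108, 220, 129 and 229. For Hdac7, a histone deacetylase abundant in thymocytes, they were 241, 213, 114, 129, 68.5 and 594. Cd3g, the CD3 gamma chain of the T cell receptor, had 156, 197, 96.2, 55.5, 54.5 and 348, with all 6 midpoints within 105 bp of the start. The sequence of the Cd3g promoter printed above is therefore covered at least in part in every list. Crebzf, a basic leucine zipper factor, was the highest gene-end peak of the CD73+ E2A list at 398, with 165 to 263 in the others. The DN3 E2A list was led by the peak between Poll, which encodes DNA polymerase lambda, and Dpcd, at chr19:45559866-45560986, with 2902 there and 1234, 430, 373, 127 and 458 in the other lists. Of the 36 genes, 7 are tandem copies on chromosome 4 named Gm13276 to Gm13290, whose promoter sequences are 99.3% to 100% identical to another copy. Reads can be split among such copies in ways the peak lists do not record, so these 7 are uncertain. The plot of scores shows genes of this group above T cell genes marked in fewer lists.

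**Figure D3:**
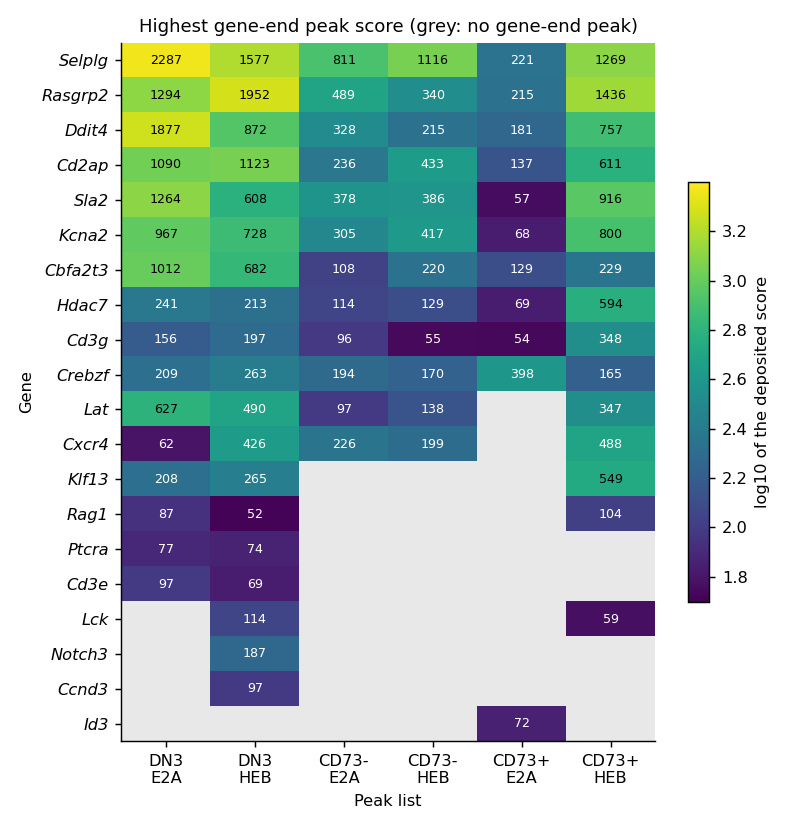
Highest gene-end peak score of 20 genes (rows) in the 6 lists (columns), coloured by the log10 of the deposited score, with the score in each cell and grey where the gene has no gene-end peak. The first 10 genes are marked in all 6 lists, and genes such as Ptcra and Cd3e are marked in the DN3 lists only, at scores under 100.

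The first comparison asked how far E2A and HEB coincide at gene ends of 1 stage. In DN3 cells Selplg and the Poll and Dpcd peak were among the 6 highest gene-end peaks of both factors, and Lat, the scaffold of proximal T cell receptor signalling, had 627 for E2A and 490 for HEB. Of 742 gene-end E2A peaks, 345 overlapped a HEB peak by at least 1 bp, 46.5% (42.9% to 50.1%), where 44.1% of all DN3 E2A peaks did. Of 748 gene-end HEB peaks, 343 overlapped an E2A peak, 45.9% (42.3% to 49.4%), against 46% of all. The share of all peaks lay inside the gene-end interval for both factors. Inside genes, away from the ends, the HEB share was higher, 54.1% of 4732 peaks (52.7% to 55.5%). With both lists limited to strong peaks, 67% of gene-end HEB peaks (61.1% to 72.5%) overlapped an E2A peak, below the 74.5% of all strong HEB peaks. Over the 345 overlapping E2A peaks, E2A and HEB scores had a Spearman rho of 0.58, a description across peaks of the same pooled libraries.

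In CD73- cells, where the lists as a whole share little, gene-end peaks overlapped more often than the lists as a whole when peaks of every score were counted. Selplg, Rasgrp2, Sla2, Poll and Dpcd were again marked by both factors, and so was Iqcn (294 for E2A and 759 for HEB), a gene of sperm development. Of 242 gene-end E2A peaks, 120 overlapped a HEB peak, 49.6% (43.3% to 55.8%), against 16.5% of all CD73- E2A peaks and 10.5% of the 3948 that lie over 100 kb from a gene. Of 343 gene-end HEB peaks, 133 overlapped an E2A peak, 38.8% (33.8% to 44.0%), against 22.2% of all. The intervals of gene-end peaks and of peaks inside gene spans (20.2% of E2A peaks, 18.9% to 21.5%) do not overlap, and no test was made since each list is 1 pooled library. When 50% of both peaks had to overlap, 27.1% of gene-end HEB peaks were shared, against 16.3% of all. With strong peaks alone there was no such gap, at 54.1% of gene-end HEB peaks (44.2% to 63.6%) and 54.7% of all.

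In CD73+ cells the 2 factors gave very unequal lists, and the shares depended on the direction. Of 208 gene-end E2A peaks, 84 overlapped a HEB peak, 40.4% (33.9% to 47.2%), while 6.75% of all CD73+ E2A peaks did. Of 729 gene-end HEB peaks, 78 overlapped an E2A peak, 10.7% (8.66% to 13.2%), below the 14.8% of all CD73+ HEB peaks. Scores of the 84 overlapping E2A peaks and their HEB partners had a Spearman rho of 0.11 across those peaks. The HEB share was 6.51% with strong peaks alone, against 17.9% of all, and 3.98% with 50% of both peaks, against 8.94% of all. The labels of the CD73+ E2A and HEB lists could not be checked against another measurement, and with the lists exchanged the share would be that of the other direction, 40.4%.

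The difference between gene ends and whole lists in the sorted cells was also present among weak peaks. Among CD73- E2A peaks scoring under 100, 59.0% of 178 gene-end peaks had a partner in at least 1 other list, against 26.0% of all peaks at that level. For CD73- HEB the shares were 65.3% and 37.0%, and for CD73+ E2A 53.4% and 14.2%. In the DN3 lists and the CD73+ HEB list, weak gene-end peaks were nearer to the list as a whole, with 36.6% against 32.7%, 43.3% against 45.6%, and 45.9% against 40.5%. All 64 strong gene-end E2A peaks of CD73- cells overlapped another list, against 91.9% of all strong E2A peaks, and so did 99% of strong gene-end HEB peaks there, against 93.8% of all. For the strong gene-end peaks of the CD73+ E2A list the share was 64.4% (49.8% to 76.8%), against 51.3% of all its strong peaks. The CD73+ HEB list went the other way, with 86.6% (81.9% to 90.2%) of strong gene-end peaks against 92.8% of all strong peaks. Without the histone peaks described below, 89.6% of 231 strong gene-end peaks (85.0% to 92.9%) overlapped another list. That interval holds the 92.8%. The strong histone peaks stood at 63.3% of 30. In the DN3 lists the strong shares were 88.8% against 84.3% for E2A and 90.8% against 92.5% for HEB. At all scores together, 56.7%, 59.9%, 69.8%, 74.9%, 55.8% and 60.5% of gene-end peaks overlapped another list, against 53.6%, 60%, 31.8%, 45.2%, 16.8% and 53.1% of all peaks, in the order of lists used above.

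**Figure D4:**
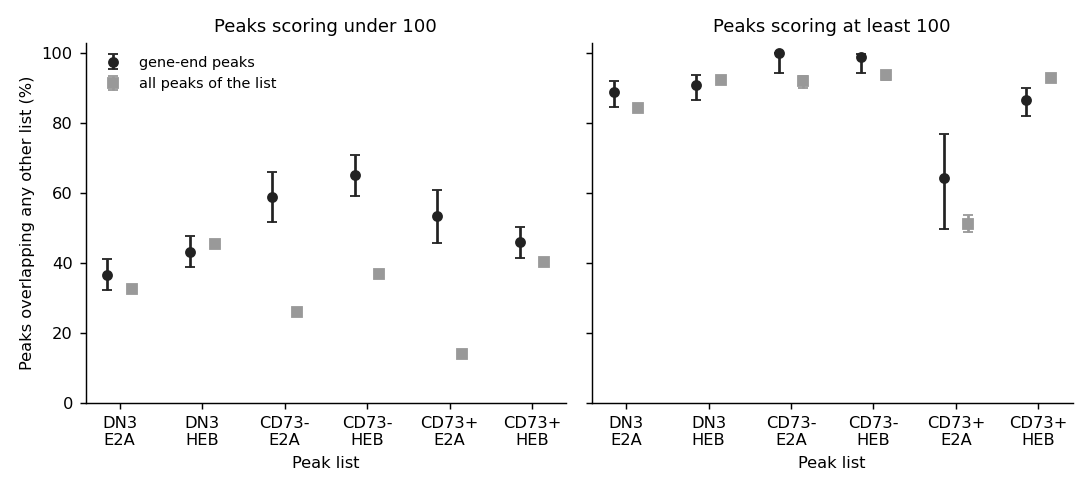
Percent of peaks with a partner in at least 1 of the other 5 lists, for gene-end peaks (black circles) and all peaks of the list (grey squares), at scores under 100 (left) and at least 100 (right), with 95% Wilson intervals. Among weak peaks the gene-end share exceeds the list share in both CD73- lists and the CD73+ E2A list, by 28.3 to 39.2 percentage points.

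The next comparison followed E2A at gene ends from DN3 to the sorted populations. Few DN3 gene-end E2A peaks were met by an E2A peak later: 102 of 742 were met in CD73- cells, 13.7% (11.5% to 16.4%), where 13% of all DN3 E2A peaks did. In CD73+ cells 52 did, 7.01% (5.38% to 9.07%), against 9.27% of all. Read from the other end, gene-end E2A peaks of CD73- cells overlapped the DN3 list more often than the CD73- list as a whole did. Of 242, 134 overlapped a DN3 E2A peak, 55.4% (49.1% to 61.5%), against 15.4% of all. Of the 208 of CD73+ cells, 71 overlapped a DN3 E2A peak, 34.1% (28.0% to 40.8%), against 5.76% of all. By gene, 105 of the 216 marked by CD73- E2A were also marked by DN3 E2A, 48.6%. Between the sorted populations, 63 of 242 CD73- gene-end E2A peaks were met in CD73+ cells, 26.0% (20.9% to 31.9%), against 15.4% of all. Among strong peaks of both lists this turned round, with 25.0% of 64 gene-end peaks (16.0% to 36.8%) against 39.9% of all. Of the 208 CD73+ peaks, 69 had a partner in the CD73- E2A list, 33.2% (27.1% to 39.8%), against 8.5% of all. With the CD73+ lists exchanged the share of DN3 gene-end peaks met in CD73+ cells would be 35.8%, against 27.9% of all peaks, and that of CD73- peaks 50.4%, against 15.5%. With 50% of both peaks required, 1.75% of DN3 gene-end peaks overlapped a CD73- peak, against 1.66% of all, and 0.270% a CD73+ peak, against 0.696% of all, where median widths differ as given above.

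By gene, E2A marked 1018 gene ends at any stage. Of these, 656 (64.4%) were marked in DN3 cells alone and 41 (4.03%) at all 3 stages. A further 64 were marked in DN3 and CD73- cells and 15 in DN3 and CD73+ cells. CD73+ cells alone had 131 genes and CD73- cells alone 87, and 24 were marked in both sorted populations and not in DN3 cells. Lat is an example of a gene with an E2A mark in DN3 and CD73- cells (627 and 97.3) and none in CD73+ cells. Mfng, the gene of a fringe glycosyltransferase that modifies Notch receptors, was similar, with E2A scores of 166 and 180.

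For HEB, DN3 gene-end peaks were met by a peak of the same factor at later stages more often than for E2A in the lists as labelled, with intervals that do not overlap at 1 bp of overlap. Of 748 DN3 gene-end HEB peaks, 162 were met in CD73- cells, 21.7% (18.9% to 24.8%), against 19.4% of all DN3 HEB peaks. A CD73+ HEB peak was overlapped by 281, 37.6% (34.2% to 41.1%), against 27.2% of all. These gene ends exceeded peaks over 100 kb from genes, of which 20.9% (19.2% to 22.8%) overlapped a CD73+ HEB peak. Of 343 CD73- gene-end HEB peaks, 200 overlapped a DN3 HEB peak, 58.3% (53.0% to 63.4%), against 28.3% of all, and 190 a CD73+ HEB peak, 55.4% (50.1% to 60.6%), against 24.9% of all. Of 729 CD73+ gene-end HEB peaks, 323 overlapped a DN3 HEB peak, 44.3% (40.7% to 47.9%), against 35.2% of all, and 176 a CD73- HEB peak, 24.1% (21.2% to 27.4%), against 22.1% of all. Exchange of the CD73+ lists would lower the DN3 share in CD73+ cells from 37.6% to 8.82%, with 14.2% for all peaks, and the CD73- share from 55.4% to 22.2%, with 18.1% for all peaks. A requirement of 50% of both peaks gave 0.936% for DN3 in CD73- cells, against 0.895% of all and now below the 1.75% of E2A, and 7.89% for DN3 in CD73+ cells, against 4.43% of all.

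HEB marked 1282 gene ends at any stage, 447 (34.9%) in DN3 cells alone, 351 (27.4%) in CD73+ cells alone, 90 in CD73- cells alone and 132 (10.3%) at all 3. DN3 and CD73+ cells without CD73- cells shared 169 genes. Rag1, the recombinase gene, is 1 of them. Its HEB scores were 51.9 in DN3 and 104 in CD73+ cells, with an E2A score of 86.9 in DN3 cells. Klf13, a zinc finger factor of lymphocytes, had HEB scores of 265 in DN3 and 549 in CD73+ cells and an E2A score of 208 in DN3 cells. Klf2, which controls receptors for exit from the thymus, had 155 and 236 for HEB and 61.5 for E2A. Cxcr4, the receptor for the stromal chemokine CXCL12, was marked by HEB at every stage (426, 199 and 488), at 930 to 969 bp downstream of the start. Its CD73- E2A peak of 226 lay at the same place, 971 bp downstream, while its DN3 E2A gene-end peak of 61.8 lay elsewhere, 301 bp upstream. The downstream place is near the edge of the window, and a DN3 E2A peak with its midpoint past 1 kb would not be counted.

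Genes marked by both factors in DN3 cells were met again more often than those marked by 1 factor. Of 358 genes with gene-end peaks of both, 211 had a CD73+ HEB peak, 58.9% (53.8% to 63.9%), against 19.9% of the 418 marked by E2A without HEB and 21.1% of the 427 marked by HEB without E2A. For CD73- HEB the shares were 36.0%, 5.74% and 9.37%, and for CD73- E2A 24.9%, 3.83% and 4.68%. CD73+ E2A marked 12.6%, 2.63% and 5.85%. No list of the sorted cells marked 127 of the 358 (35.5%), 321 of the 418 (76.8%) and 308 of the 427 (72.1%). The intervals of the first class do not overlap those of the other classes in any of these lists. Scores moved with the class: the median of the highest DN3 score was 173 for the 358 genes and 64.4 and 66.1 for the others. The highest score is the larger from both lists for the 358 genes and comes from 1 list for the others. Part of this gap is therefore fixed by construction, and the same holds for the score levels that follow. Among genes whose DN3 scores were all under 100, the CD73+ HEB shares were 34.1% of 85 (24.9% to 44.7%), 15.4% of 351 (12.0% to 19.5%) and 18.8% of 368 (15.1% to 23.1%). Among those with a strong DN3 peak they were 66.7% of 273 (60.9% to 72.0%), 43.3% of 67 (32.1% to 55.2%) and 35.6% of 59 (24.6% to 48.3%), higher for the class marked by both factors. Scores still differed within these levels: the medians were 75.1 against 61.4 and 63.5 among genes under 100, and 225 against 135 and 142 among the others. The part of score in these shares was not tested.

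Ptcra, the invariant chain of the pre-T cell receptor, was among the 127, with DN3 scores of 76.9 for E2A and 73.7 for HEB and no gene-end peak in sorted cells. Cd3e, another CD3 chain, was marked likewise at 96.8 and 68.8, and Cd5, a receptor that tunes signal strength, at 63.0 and 64.1. These are weak peaks. The highest of the class were Pik3r5, a regulatory subunit of phosphoinositide 3-kinase gamma (2655 and 980), Padi4, a peptidylarginine deiminase (546 and 248), Degs2, a sphingolipid desaturase (442 and 366), Cldn4, a tight junction claudin (408 and 161), and Itga6, an integrin chain (71.6 and 387). Pik3r5 shows a limit of the midpoint rule: its DN3 E2A peak, chr11:68430000-68432516, was overlapped by peaks of all 4 later lists whose midpoints lay more than 1 kb from the start. A DN3 gene-end peak of Itga6 was likewise overlapped by a CD73+ HEB peak that is not a gene-end peak of Itga6. Peaks of this kind were few. Of the 127 genes, 3 had a gene-end peak overlapped by a later list, and of the 1134 genes marked in 1 list, 23 (2.03%) had a peak overlapped by another list.

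Genes marked in 1 list, 1134 in all, were led by a peak scoring at least 100 in 5 of the 6 lists. In the DN3 E2A list they numbered 321, with Slc25a31 (683), a mitochondrial carrier whose peak a DN3 HEB peak overlapped, and Il5ra (319), an interleukin 5 receptor chain, at their head. The DN3 HEB list had 308, led by Adgre5, the CD97 receptor (1199), whose peak was overlapped by all other lists, then by Sfr1 (217), Calm2 (196), Osm (188) and Notch3 (187). Notch3, a receptor of early thymocytes, had its gene-end peak 864 bp inside the gene. The 65 genes of the CD73- E2A list reached 82.8, at Nr0b2, and the 78 of the CD73- HEB list reached 109, at Mlf2. The 92 genes of the CD73+ E2A list reached 180, at Tcf7l2 and at Defb28. The 270 genes of the CD73+ HEB list reached 290, at the neighbouring histone genes H2ac23 and H2bc23.

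Of 30 regulators of T cell development named whatever their values, 12 had a gene-end peak in any list, where 8.1% of all genes did, and 0 in all 6, where 0.164% of all genes did. Besides Rag1, Ptcra, Cd3e, Cd5 and Notch3, these were Lck, the proximal kinase (HEB 114 in DN3 and 58.8 in CD73+ cells), Ccnd3, the cyclin of pre-T cell division (DN3 HEB 97.0), Id3, the E protein inhibitor (CD73+ E2A 71.8), Hes1, a Notch target (CD73+ HEB 62.9), and Sox4, Gata3 and Myb (DN3 HEB 54.0 to 56.5). The E protein genes Tcf3 and Tcf12 had no gene-end peak, nor did Tcf7, Bcl11b, Runx1, Egr2, Zbtb16 or Nt5e, which encodes CD73. This covers the ends of these genes and not their enhancers, and a peak that was not called does not show that the factor was absent.

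Gene groups differed in how often their ends were marked, set beside the 8.1% of all protein-coding genes marked in any list. Genes of the T cell receptor complex and the recombinase stood at 5 of 8 matched, namely Cd3g, Cd3e, Cd3d, Ptcra and Rag1, all 5 of them in the DN3 E2A list. In proximal receptor signalling 7 of 18 were marked, 5 of them by DN3 HEB, among them Lat, Lck, Vav1 (87.6) and Grap2 (130). Chemokine receptors and homing genes stood at 6 of 15, all 6 marked by DN3 E2A, including Selplg, Ccr9 (73.4) and Ccr7 (57.6). Genes that respond to receptor signals stood at 7 of 20, with Dusp2, a phosphatase of ERK (162, 125, none, 71.0, none and 163), and Tnfaip3, an inhibitor of NF-kB signalling (105 and 77.4 in DN3 cells and 111 for CD73+ HEB). Cytokine receptors and JAK-STAT genes stood at 6 of 19, with Socs1, the cytokine signal inhibitor, at 141, 127, 58.5 and 339 in the lists that marked it.

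Of the housekeeping groups, most stayed near or under the share of all genes. Marked members were 2 of 32 small and 3 of 46 large ribosomal subunit proteins, 2 of 29 genes of oxidative phosphorylation, 1 of 23 DNA replication genes (Pcna, CD73+ HEB 70.1), 3 of 26 proteasome genes, 2 of 25 splicing factors, 2 of 23 translation factors and 2 of 23 genes of Mediator and RNA polymerase II. The unfolded protein response and chaperones, and the chromatin regulators, stood higher at 4 of 22 each, 18.2%. Of genes of the G1 to S transition, 2 of 20 were marked, Ccnd3 and Myc (DN3 HEB 61.3). Markers of cells that could accompany the cultures were marked in small numbers, with 0 of 12 for B cells and 0 of 10 for hepatocytes. Myeloid cells (1 of 12, Fcgr3, 53.6), erythroid cells (1 of 9, Tfrc, 52.4) and stroma (1 of 11, Thy1, 74.0) were near the share of all genes. Dividing cells of other kinds also express Tfrc, and T cells also express Thy1. Markers of NK and innate lymphoid cells had the highest share of these groups, 2 of 11 (18.2%), with Gzma and Prf1, described below. A peak is no measure of expression, so these counts describe binding and do not measure purity. The lists are short, and no set test was made.

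Histone genes were the group with the highest share, and most of them were marked by CD73+ HEB. Of 27 replication-dependent histone genes on the list used, 23 were marked by CD73+ HEB and 2 to 10 by each other list. A wider set of 67 histone genes, taken by their older symbols after that count was seen, had 57 marked by CD73+ HEB, 85.1% against 3.23% of all genes. The other lists marked them above their share of all genes too. In DN3 cells E2A marked 9 (13.4%, against 3.55% of all genes) and HEB 6 (8.96%, against 3.59%). In CD73- cells E2A marked 10 (14.9%, against 0.987%) and HEB 24 (35.8%, against 1.44%), and CD73+ E2A marked 19 (28.4%, against 0.964%). Neighbouring histone genes can share 1 peak, so these gene counts exceed the peaks. The peaks numbered 6 and 5 for E2A and HEB in DN3 cells, 6 and 16 in CD73- cells and 10 for CD73+ E2A. Of the 67 genes, 34 were marked in at least 1 list other than CD73+ HEB, and 24 by CD73+ HEB alone. CD73+ HEB marked 18 of 18 H2A genes, 16 of 18 H2B, 12 of 12 H3, 8 of 13 H4 and 3 of 6 H1 genes. The 57 peaks behind them are 7.82% of the gene-end peaks of that list.

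These CD73+ HEB peaks sat on the genes themselves. The midpoint lay inside a histone gene for 49 of the 57 peaks, and downstream of the start for 47 of the 55 near a known start, at a median of 230 bp, in genes with a median span of 492 bp. Their scores ran from 50 to 343 with a median of 107, and 30 were strong. Histone peaks of the other lists scored 50.6 to 97.8 in those lists. H2ac4, an H2A gene, and its neighbour H3c2, an H3 gene, shared a CD73+ HEB peak of 245 and a CD73- HEB peak of 50.6. Of the 57 peaks, 22 overlapped another list (38.6%, 27.1% to 51.6%), against 62.4% (58.6% to 65.9%) of the other gene-end peaks of the list. Genes of a class can be close in sequence, though their identity was not measured here. Reads can then be placed at 1 gene in place of another, so single histone genes are uncertain. With the histone genes left out, CD73+ HEB still marked 651 genes through 674 peaks.

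**Figure D5:**
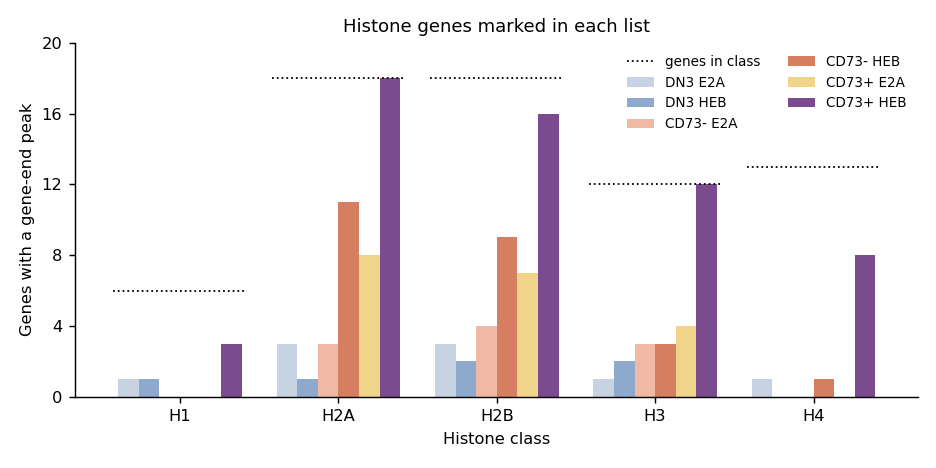
Number of histone genes of each class with a gene-end peak (bars, 1 per list), with the number of genes in the class as a dotted line. CD73+ HEB reaches the class total for H2A (18) and H3 (12), and no other list passes 11 in any class.

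Promoter windows under the peaks were richer in certain E-boxes. RefSeq windows of 250 bases before to 50 after the start were searched on both strands, 21263 in all, and those overlapped by a peak of any midpoint by at least 1 bp numbered 496, 559, 77, 115, 53 and 389 in the order of lists. CAGCTG was present in 30.6%, 28.1%, 35.1%, 26.1%, 32.1% and 27.5% of them, against 15.6% of all windows. CAGGTG or its complement CACCTG was present in 37.5%, 36.0%, 45.5%, 43.5%, 45.3% and 35.0%, against 19.7%. CATCTG or CAGATG was present in 11.3% to 19.1%, against 14.6% of all windows, above that share in 4 lists and below it for HEB in DN3 and CD73+ cells. The interval held the 14.6% of all windows in each list (8.53% to 14.8% for CD73+ HEB, the lowest share). Any CANNTG, a motif that contains the others, was present in 75.5% to 81.9%, against 69.0%. The interval held that 69.0% for CD73- E2A (67.5% to 85.7%), CD73- HEB (68.9% to 84.1%) and CD73+ E2A (62.4% to 85.1%). The GC box GGGCGG was present in 57.9%, 62.3%, 41.6%, 53.9%, 37.7% and 62.2%, against 46.2%, and the median GC content was 59.3% to 63.0% against 56.3%. For GGGCGG the interval held the 46.2% in the same lists, CD73- E2A (31.2% to 52.7%), CD73- HEB (44.8% to 62.7%) and CD73+ E2A (25.9% to 51.2%). The part of base composition in the E-box shares was not tested. The 2 copies of CAGCTG in the Ptcra stretch and the adjoining CAGGTG and CAGCTG in the Rag1 stretch, printed above, are examples of these motifs.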

How the data were processed

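Chromatin immunoprecipitation of E2A or HEB was sequenced in 3 cell groups, with an input for each, 9 libraries in all. Build mm10 and the programs MACS 1.4.2, Bowtie and HOMER are named, per the submitters' processing notes, and per the labels' protocols duplicates were concatenated. The 6 deposited peak lists give positions and a score, which the authors' MACS wrote as 10 times the negative log10 of a p-value. The deposited scores were not rescaled and order peaks only inside their own list. Lists were assigned to groups by the names they carry, and 0 columns were left over. Gene spans came from a RefSeq table of the same build, and strand from the RefSeq promoter table, which covers part of the genes. Peaks were compared by overlap of at least 1 bp. The members, gene lists and rules were chosen with earlier results of these data known. Named genes are the 6 highest in each list, up to 10 marked in all lists, up to 5 per pattern over the lists, up to 4 per gene list and 30 regulators. Histone genes by older symbols, start sites listed in the promoter table, 4 printed sequences and those of Hdac7 and Tnfsf14 were added after the data were seen. The assignment of peaks to gene ends was tested on simulated data. No test across groups was possible, since each group is 1 pooled list. Scripts ran in Python 3.11.15, with pandas 2.3.3 and numpy 2.4.6 for tables, scipy 1.17.1 for intervals and matplotlib 3.10.9 for plots.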

Additional observations from a re-analysis of the deposited data

How the results depend on the processing

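Of 216 values recomputed under 12 alternatives, 156 counts stayed within 1.5 times of the reported count or percentages inside the reported interval, and 60 did not. Leaving out peaks wider than 3000 bp, counting any base within 1 kb and taking either end of every gene moved none of the 21 values each, nor did 2 alternatives chosen after seeing the data, listed start sites and leaving out histone genes. With a window of 500 bp, gene-end peaks numbered 489 for DN3 E2A, 139 and 214 for CD73- E2A and HEB and 113 for CD73+ E2A, marking 515, 132, 201 and 112 genes. With 2500 bp they numbered 1295 and 1190 for DN3 E2A and HEB, 489 and 634 in CD73- cells and 549 for CD73+ E2A, marking 1293, 1209, 433, 573 and 539 genes. With peaks scoring at least 100 they numbered 286, 261, 64, 98, 45 and 261 in the order of lists used above, marking 295, 277, 64, 94, 46 and 280 genes. With equal list lengths of 9407 peaks, CD73+ E2A kept 118 peaks at 122 genes, and 7.09% of CD73+ HEB gene-end peaks overlapped E2A.

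Among strong peaks, HEB overlapped E2A in 67%, 54.1% and 6.51% in DN3, CD73- and CD73+ cells. E2A from DN3 gave 18.5% in CD73- and 4.90% in CD73+ cells. HEB gave 28.0% and 46.4%, and 74.5% from CD73- to CD73+ cells. With 50% of both peaks required, HEB overlapped E2A in 38.8%, 27.1% and 3.98%. E2A gave 1.75% and 0.270% from DN3 and 14.9% from CD73- to CD73+ cells, and HEB gave 0.936%, 7.89% and 28.6%. With midpoints within 200 bp, DN3 HEB overlapped DN3 E2A in 37.4%, E2A from DN3 gave 10.4% and 5.26%, and HEB 17.4% and 30.7%. With the CD73+ lists exchanged, CD73+ HEB overlapped E2A in 40.4%, E2A gave 35.8% from DN3 and 50.4% from CD73- cells, and HEB gave 8.82% and 22.2%. Fewer peaks enter under the 500 bp window, the score minimum and the equal list length by construction. Likewise by construction, more enter with 2500 bp, and the 50% rule can only lower an overlap share. Exchange of the CD73+ lists puts the other CD73+ list in the place of each. The cause of the other shifts was not tested. No paired analysis was possible because each group has 1 pooled list, and no replicate could be left out for the same reason. The depth of the lists is unknown here, so a gene without a peak cannot be told apart from one under the detection limit.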

Other observations

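Some effector genes of killer and gamma-delta lymphocytes were marked in DN3 cells, before a receptor was introduced. Gzma, the gene of granzyme A, had gene-end scores of 225 for E2A and 52.2 for HEB in DN3 cells and 132 for CD73+ HEB, at 10 to 85 bp from the start. Prf1, which encodes perforin, had a DN3 E2A peak of 76.4. Ifng, the interferon gamma gene, had E2A peaks of 119 in DN3 and 63.0 in CD73+ cells, 180 and 142 bp upstream of the start. Blk, a kinase of B cells and of interleukin 17-producing gamma-delta T cells, had a DN3 E2A peak of 78.5. Of 21 genes of gamma-delta programmes, 4 had a gene-end peak in any list, and of 11 genes of NK and innate lymphoid cells 2 did, beside the 8.1% of all protein-coding genes.

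Rps29, a small ribosomal subunit gene, stood apart from the other ribosomal protein genes. The midpoints of its peaks lay 179 to 203 bp from an end of the gene span, whose strand was not known here, and the peaks scored 345 in the DN3 HEB list, 258 and 502 for E2A and HEB in CD73- cells and 112 for CD73+ E2A, with none in the DN3 E2A or CD73+ HEB list. Cdk9, the kinase that releases paused RNA polymerase, had a HEB peak at every stage (85.5, 323 and 217) and an E2A peak of 83.7 in CD73- cells, 571 to 694 bp upstream. Over genes of known strand, 5′ ends had 555, 559, 184, 267, 159 and 579 peaks within 1 kb, in the order DN3 E2A, DN3 HEB, CD73- E2A, CD73- HEB, CD73+ E2A and CD73+ HEB. The 3′ ends, which lie outside the rule used for these genes, had 256, 213, 141, 150, 123 and 218. Peaks were thus more numerous at 5′ ends in every list, by the least in the 2 sorted E2A lists.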
